A study of Mus musculus with 6 samples.

Results

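The genes described here are 32 members of the glycolytic pathway and of the transcriptional response to low oxygen, chosen by symbol from the 24391 symbols of a table of read counts per gene. They comprise carriers of glucose and lactate, the enzymes that convert glucose to lactate, the enzymes that set the flux through phosphofructokinase, the pyruvate dehydrogenase kinases, and targets of the hypoxia-inducible factors. RNA was measured in hemibrains of mice at postnatal day 0. The 3 libraries of one group carry the genotype label Celf2 -/- (null, pups 2, 4 and 10), and the 3 of the other carry the label Celf2 +/- (heterozygous, pups 6, 7 and 11). By these labels the control pups also lack 1 Celf2 allele, no wild-type library was compared, and litter, sex and strain are not given. Y-linked transcripts were scored as present in heterozygous pups 6 and 11 and null pup 2, and as absent in heterozygous pup 7 and null pups 4 and 10. The groups were thus not balanced in them. The labels do not say whether the samples were taken on 1 occasion, so p-values measure the spread between these libraries.

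Glycolysis splits glucose into pyruvate in the cytosol and supplies much of the ATP of tissue that is short of oxygen. Lactate dehydrogenase then reduces pyruvate to lactate, whereas pyruvate dehydrogenase passes it to the mitochondria unless a pyruvate dehydrogenase kinase has switched that complex off. Hypoxia-inducible factors are broken down while prolyl hydroxylases have oxygen to work with, and when oxygen falls they raise transcription of many glycolytic genes together with Vegfa, Bnip3, Egln3 and similar targets. Adult brain tissue runs mainly on glucose, which neurons take up through the Slc2a3 carrier, whereas the tissue here was newborn.

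Library totals lay between 28831997 and 36531980 counts, and levels are given as CPM, counts relative to library size, with the sizes scaled by the trimmed mean of M-values (TMM). Null replicate 2 stood apart in having 11.8% of its counts on Rn45s, the ribosomal precursor, where the others had 0.194% to 1.27%. Values listed library by library follow the order of pups 6, 7 and 11 for heterozygous and 2, 4 and 10 for null libraries. Celf2 itself was at 362 to 459 CPM in heterozygous libraries and at 331 to 448 CPM in those labelled null (log2 fold change -0.07, edgeR adjusted p = 0.955). A total over the gene cannot tell a disrupted transcript from an intact one and so does not check the genotype labels, on which every direction below rests. The tissue label was matched by 8 neuronal markers with a summed level of 6395 to 7165 CPM, against 11.1 to 15.99 CPM for 8 skeletal muscle markers. Of 9 erythroid markers 6 were at 0 in every library, and the 9 summed to 5.45 to 11.6 CPM. The rule for counting reads that match several places is not given, so this does not measure blood content. The 10 hindbrain markers summed to 138 CPM in heterozygous replicate 7, which stood apart, to 33.3 and 27.0 CPM in the other heterozygous libraries, and to 4.61 to 20.9 CPM in those labelled null. All 8 tested had negative fold changes (median -2.86 on the log2 scale, 5 lower at an unadjusted p under 0.05, 0 called by edgeR), and the summed levels did not overlap between the groups. Their part in the results below was not tested. Without heterozygous replicate 7 the members' median log2 fold change was 0.04 in place of 0.02. The 6 markers of meninges summed to 374 CPM in heterozygous replicate 6 and 541 to 856 CPM elsewhere. In whole tissue, fewer cells of a type and less RNA per cell cannot be told apart.

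All 32 members were detected and passed the filter on low counts, with mean counts from 34.5 (Eno1) upward. Compared per kilobase of gene length, the highest levels belonged to Pkm, the muscle-type pyruvate kinase gene that also serves brain, at 264 CPM per kb, and to Aldoa, the aldolase, at 250 CPM per kb. Ldha (165 CPM per kb), Tpi1 (163) and Ldhb (106) followed. The lowest levels per kilobase were those of the vasodilator peptide gene Adm (0.835), of Eno1 (0.623), the enolase most tissues use, and of Hk2 (1.01), the insulin- and hypoxia-responsive hexokinase. As counted, the levels are thus uneven along one pathway, though those of Gapdh, Pgk1 and Eno1 are uncertain for the reason given below. Gapdh, whose enzyme acts directly after triosephosphate isomerase, was at 5.68 CPM per kb, and Pgk1, the next enzyme, at 17.1 CPM per kb.

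**Figure D1:**
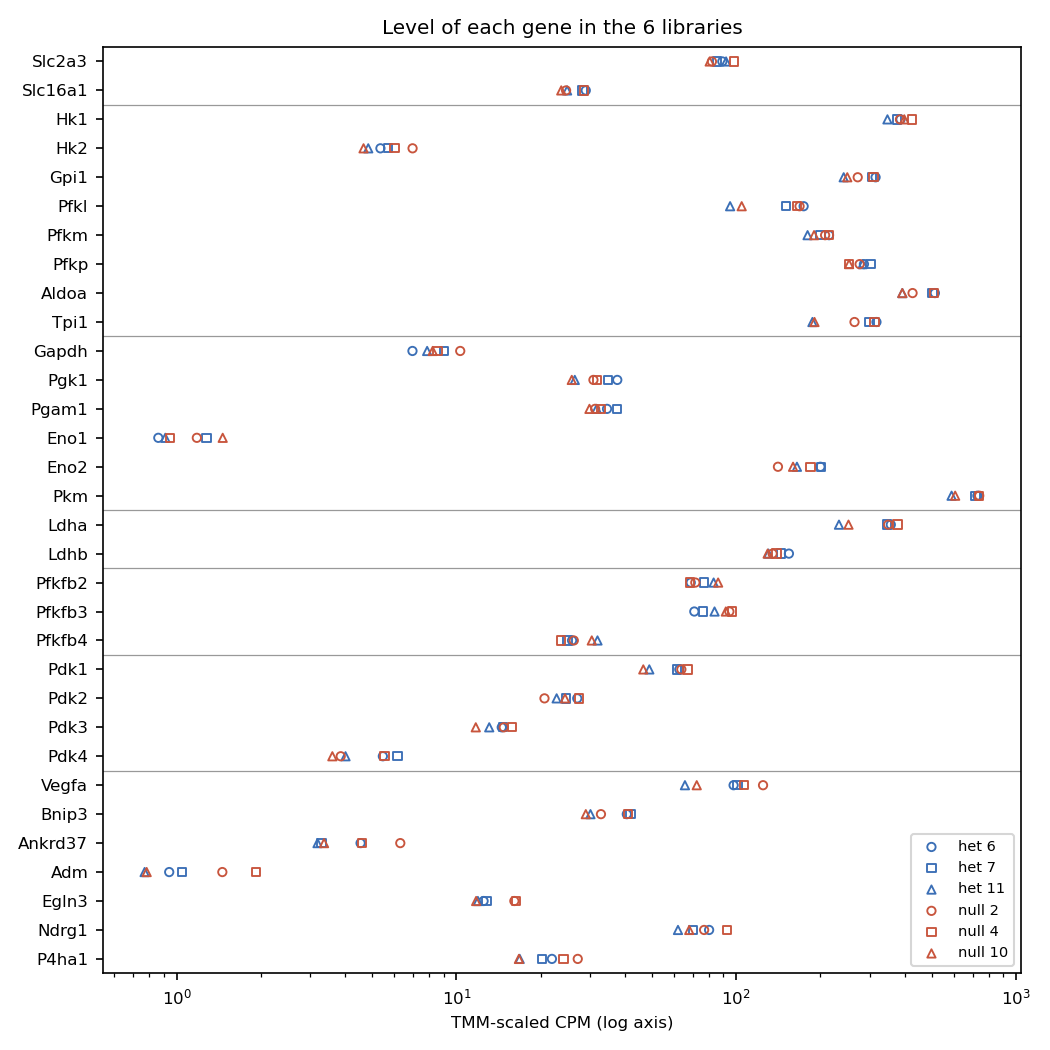
TMM-scaled CPM on a log axis for each of the 32 genes in each of the 6 libraries, with heterozygous libraries in blue and libraries labelled null in red, and lines between role groups. Pkm lies highest at 588 to 738 CPM, Eno1 and Adm lie lowest at about 1 CPM, and the triangles for heterozygous replicate 11 and null replicate 10 often lie leftmost together.

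Some of these genes have close copies elsewhere in the genome, and the rule by which reads matching several places were counted is not given in the sources used here. For each member the longest protein-coding transcript of the GENCODE M21 annotation was cut into all windows of 50 bases, and windows that also occur in a transcript of another annotated gene were counted on both strands. The shared portion was 82.5% for Gapdh, whose windows recurred in 222 other genes, 213 of them annotated as pseudogenes. It was 72.2% for Eno1, 68.0% for Pgk1, 62.4% for Bnip3 and 41.5% for Pgam1. Pkm shared 34.4%, Ldha 16.6%, Aldoa 13.5% and Tpi1 7.51%, and 11 members shared none. Gapdh, Eno1, Pgk1 and Pgam1 were the members of the lower pathway with low levels per kilobase, whereas Eno2, with 0.255% shared, stood at 62.6 CPM per kb. The part of shared sequence in these levels was not tested, so levels of Gapdh, Eno1, Pgk1, Pgam1 and Bnip3 are uncertain.

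**Figure D2:**
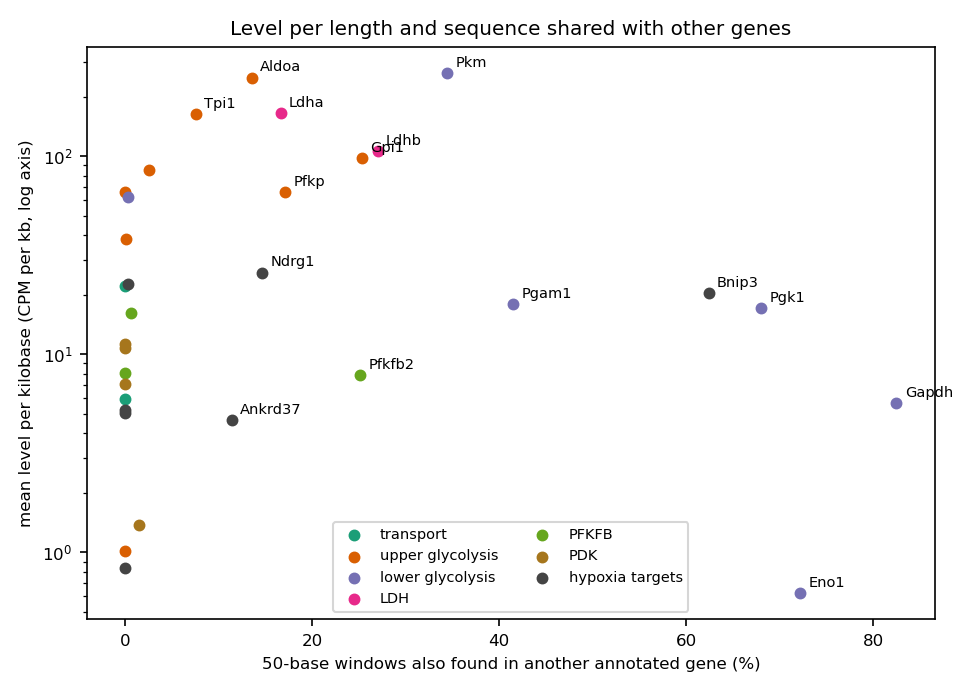
Mean level over the 6 libraries in CPM per kilobase (log axis) against the percentage of 50-base transcript windows that another annotated gene also contains, 1 point per gene, coloured by role. Gapdh (82.5%) and Eno1 (72.2%) lie far right and low, while Pkm, Aldoa and Tpi1 lie high at 34.4% or less.

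The comparison of the labelled genotypes asked how these transcripts differ between pups with no intact Celf2 allele and pups with 1. No member passed: 0 of 32 had an edgeR quasi-likelihood adjusted p under 0.05, where 0.00628% of the 15925 genes tested (1 gene) did, and limma-voom also called 0. DESeq2 called 0 of the 24 members to which it gave an adjusted p, and gave none to Adm, Ankrd37, Egln3, Eno1, Gapdh, Hk2, Pdk3 and Pdk4. At an unadjusted p under 0.05, edgeR counted 2 members, 1 higher and 1 lower, against 7.06% of all genes tested. DESeq2, which called 57 genes in all (0.646% of those with an adjusted p), counted 1 member at that unadjusted level. Fold changes were positive for 16 members and negative for 16, and their median on the log2 scale was 0.02 (all genes tested, -0.001). Groups did not overlap for 2 members, Pfkfb3 and Pfkp, against 12.7% of all genes tested (6.21% with null above and 6.47% with null below), so neither share lay above the background.

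How small a difference could have been seen varied by gene. The 95% interval of the log2 fold change lay within 0.5 on either side of 0 for 20 members. For the other 12 it reached beyond, among them Pfkl, Tpi1, Ldha, Vegfa and Adm. The narrowest interval spanned 0.30 and the widest, that of Adm, 1.51 on the log2 scale. A fold change that misses the threshold does not show equal levels, least of all for those 12.

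**Figure D3:**
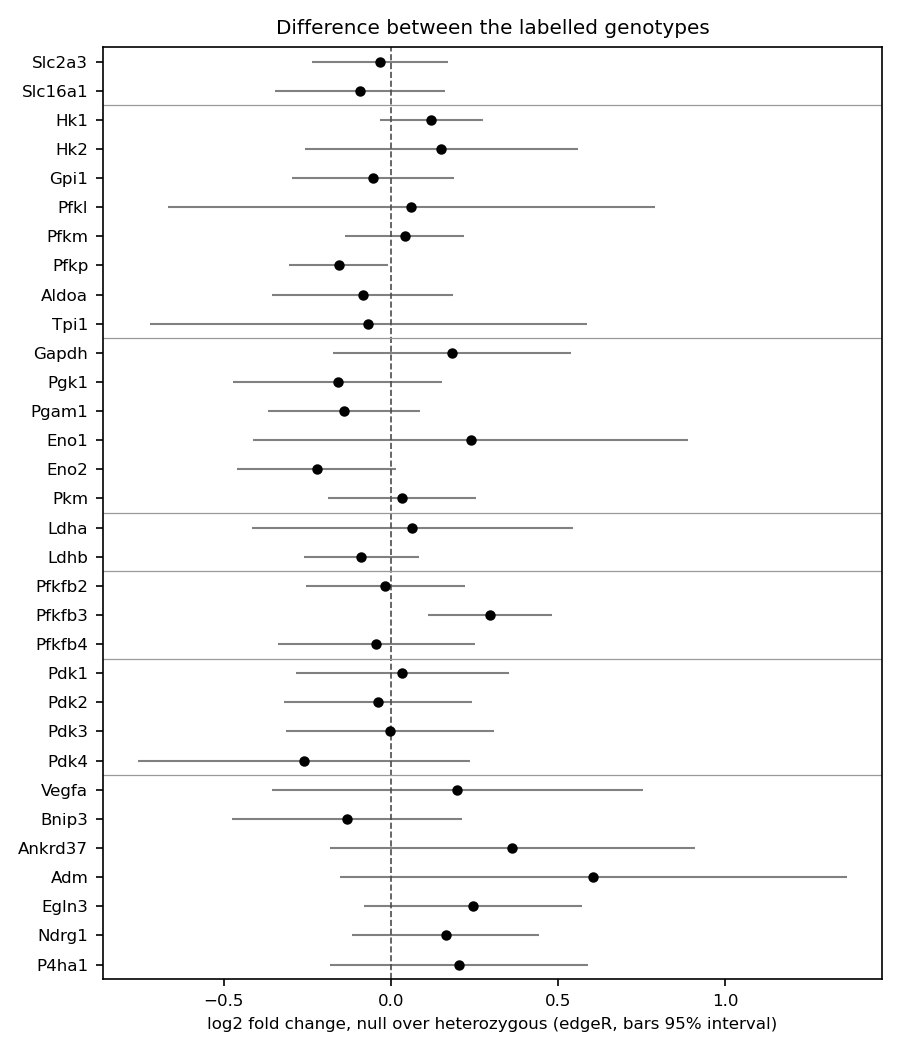
Log2 fold change of libraries labelled null over heterozygous ones for each of the 32 genes, with the unadjusted 95% interval of the edgeR fit as a bar and 0 as a dashed line. The intervals of Pfkfb3 (0.11 to 0.48) and Pfkp (-0.31 to -0.01) leave out 0, and that of Adm is the widest.

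Neither of the glucose and lactate carriers among the members passed the test. Slc2a3, the glucose carrier of neurons, measured 89.2, 85.3 and 92.0 CPM in the heterozygous libraries against 81.9, 98.3 and 80.4 CPM in the null ones. The null libraries thus span the heterozygous ones on both sides (88.8 ± 3.35 against 86.8 ± 9.92 CPM, SD, n = 3 each, log2 fold change -0.03, SE 0.09, edgeR adjusted p = 0.974). Slc16a1, a carrier of lactate and other monocarboxylates, lay between 23.7 and 28.998 CPM in all 6 libraries. Of 8 other carrier genes tested, Slc2a1 and Bsg among them, 0 passed at either the adjusted or the unadjusted level. Slc2a1, the glucose carrier of the blood-brain barrier, measured 67.7, 69.7 and 69.4 CPM in the heterozygous libraries against 90.0, 85.4 and 64.7 CPM in the null ones (0.21, SE 0.12, edgeR adjusted p = 0.771). Slc16a8, a monocarboxylate carrier, lay between 4.47 and 7.44 CPM (-0.22, SE 0.20, edgeR adjusted p = 0.892).

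The upper pathway runs from the hexokinases to the triose phosphates. Hk1, the hexokinase bound to brain mitochondria, measured 387, 376 and 347 CPM in the heterozygous libraries against 385, 424 and 399 CPM in the null ones. Null replicate 2 lay just below heterozygous replicate 6, so the groups overlapped (log2 fold change 0.12, SE 0.07, edgeR adjusted p = 0.803). Hk2 lay at 4.66 to 6.97 CPM. Pfkp, the platelet-type phosphofructokinase subunit that brain also uses, measured 286, 302 and 283 CPM in the heterozygous libraries against 276, 253 and 253 CPM in the null ones, so every null library lay below every heterozygous one (-0.16, SE 0.07, unadjusted p = 0.0415, edgeR adjusted p = 0.687). The unadjusted p of Pfkp was no longer under 0.05 with DESeq2, with a covariate for Y-linked transcripts, or without heterozygous replicate 6 or 7 or null replicate 4 or 10. Pfkp shared 17.1% of its windows with 1 other annotated gene. The muscle-type subunit gene Pfkm lay between 180 and 215 CPM.

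The liver-type subunit gene Pfkl and the isomerase gene Tpi1 had wide intervals, with log2 fold changes of 0.06 (SE 0.29, edgeR adjusted p = 0.988) and -0.07 (SE 0.26, edgeR adjusted p = 0.984). Pfkl measured 174, 151 and 95.1 CPM in the heterozygous libraries against 168, 165 and 105 CPM in the null ones. Tpi1, which interconverts the triose phosphates, was at 317, 299 and 187 CPM against 265, 312 and 190 CPM. In both genes heterozygous replicate 11 and null replicate 10 were the low pair, with the higher of them at 69.4% (Pfkl) and 71.9% (Tpi1) of the lowest of the other 4 libraries. Both genes are described in full for this pattern, chosen after their values were seen. Aldoa measured 513, 503 and 392 CPM in the heterozygous libraries against 427, 509 and 392 CPM in the null ones, again lowest in the same 2 libraries (-0.08, SE 0.12, edgeR adjusted p = 0.946). Gpi1, the isomerase that follows hexokinase, ranged from 242 to 315 CPM with the same 2 libraries lowest.

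In the lower pathway, Pkm had the highest level per kilobase. It measured 727, 716 and 588 CPM in the heterozygous libraries against 738, 736 and 606 CPM in the null ones (log2 fold change 0.03, SE 0.10, edgeR adjusted p = 0.974). Heterozygous replicate 11 and null replicate 10 lay below the other 4, and the groups overlapped. Eno2, the neuronal enolase, measured 200, 201 and 165 CPM in the heterozygous libraries against 141, 184 and 160 CPM in the null ones. Null replicate 4 exceeded heterozygous replicate 11, so the groups overlapped (-0.22, SE 0.11, unadjusted p = 0.0629, edgeR adjusted p = 0.731). Pgam1, the phosphoglycerate mutase, was at 34.5, 37.6 and 31.7 CPM against 31.3, 32.9 and 29.9 CPM (-0.14, SE 0.10, edgeR adjusted p = 0.853). Pgk1, an X-linked gene like Pdk3, ranged from 25.8 to 37.6 CPM. Gapdh was at 6.97 to 10.3 CPM and Eno1 at 0.861 to 1.46 CPM.

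Lactate dehydrogenase is a tetramer of the subunits encoded by Ldha and Ldhb, the first favouring lactate formation and the second its use. Ldha measured 357, 346 and 233 CPM in the heterozygous libraries against 349, 377 and 252 CPM in the null ones (log2 fold change 0.06, SE 0.20, edgeR adjusted p = 0.978). Heterozygous replicate 11 and null replicate 10 were again apart, with the higher at 72.8% of the lowest other library. Ldhb, at 154, 144 and 130 CPM against 135, 139 and 130 CPM, varied less (-0.09, SE 0.08, edgeR adjusted p = 0.887). Per kilobase, Ldha therefore made up 60.97%, 61.8% and 54.7% of the pair in heterozygous libraries against 63.6%, 64.7% and 56.8% in null ones. The means, 59.2% ± 3.89 and 61.7% ± 4.29 (SD, n = 3 each), differed by less than these spreads (p = 0.5, two-sided exact permutation test).

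The bifunctional phosphofructokinase-2 enzymes control how active phosphofructokinase is, and 3 of their genes are members (Pfkfb1 is not). Pfkfb3, whose product mainly makes the activating sugar bisphosphate, measured 70.8, 75.9 and 83.7 CPM in the heterozygous libraries against 94.5, 96.6 and 91.8 CPM in the null ones. All null libraries lay above all heterozygous ones, with means of 94.3 ± 2.40 and 76.8 ± 6.46 CPM (SD, n = 3 each). On the log2 scale this was a difference of 0.30 (SE 0.08, 95% interval 0.11 to 0.48, unadjusted p = 0.00485), and with an edgeR adjusted p of 0.515 it did not pass. Over the other settings the adjusted p of Pfkfb3 was lowest with DESeq2, at 0.121, and highest without heterozygous replicate 7, at 0.9999. In that last setting no member had a lower adjusted p. Without single libraries the log2 fold change of Pfkfb3 lay between 0.24 and 0.36, and its unadjusted p stayed under 0.05. With library size alone its unadjusted p was not under 0.05. Pfkfb2 and Pfkfb4 showed no such split, at 68.4 to 86.2 CPM and 23.6 to 31.9 CPM, and were the 2 members whose highest libraries were heterozygous replicate 11 and null replicate 10 (14.9% of all genes tested).

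Among these 3 genes, Pfkfb3 took 47.4%, 48.2% and 46.6% of transcripts per length in heterozygous libraries, against 54.0%, 56.4% and 49.1% in null ones. Each null library again lay above each heterozygous one, by a mean of 5.72 percentage points. The exact two-sided permutation test gave p = 0.1, the smallest that 3 against 3 libraries allow, and 0.433 after Benjamini-Hochberg adjustment over 13 isoenzyme shares. At that size no share can pass the threshold, so the shares are given as values. Hk1 made up 98.8% ± 0.057 of the 2 hexokinases in heterozygous libraries and 98.8% ± 0.259 in those labelled null (SD, n = 3 each). Among phosphofructokinase subunits the Pfkl share was 16.8% in heterozygous replicate 11 and 18.7% in null replicate 10, below the remaining 4 libraries at 22.8% to 25.4%. The Eno2 share, 98.6% to 99.3%, rests on the uncertain level of Eno1. Shared windows also made up 27.0% for Ldhb and 25.1% for Pfkfb2. Pfkfb2 was divided by a gene length of 9621 bases, where its longest protein-coding transcript has 4425. The sizes of the Ldha and Pfkfb shares are therefore uncertain as well.

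**Figure D4:**
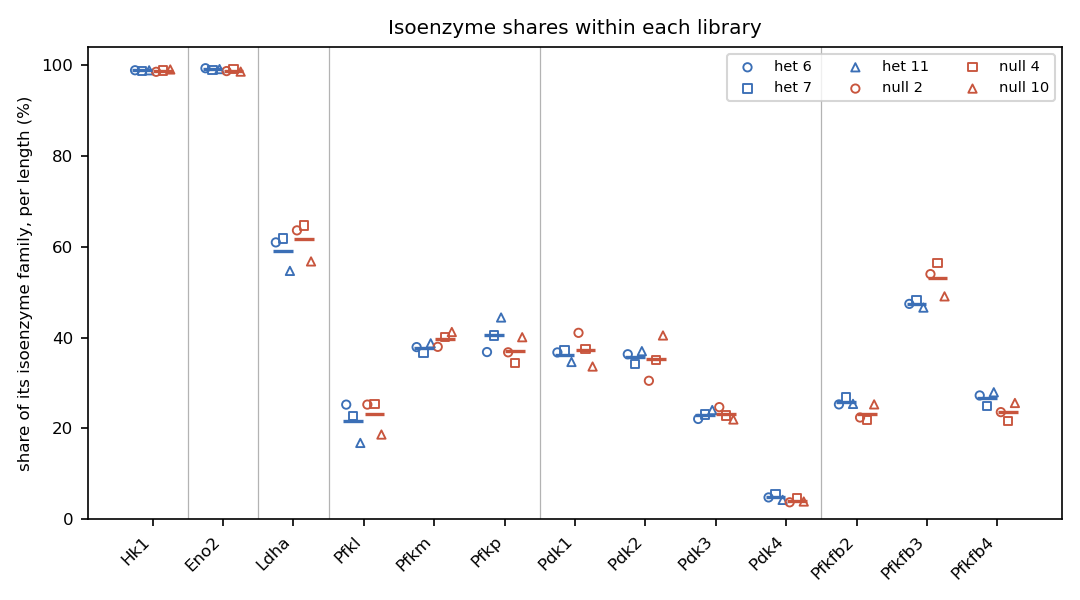
Share of each gene in its isoenzyme family, in percent of transcripts per length, for each library, with bars at the group means (heterozygous blue, labelled null red). Pfkfb3 lies at 46.6% to 48.2% in heterozygous libraries and at 49.1% to 56.4% in those labelled null, and Ldha and Pfkl are lowest in heterozygous replicate 11 and null replicate 10.

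The 4 pyruvate dehydrogenase kinases, which phosphorylate and inactivate the complex, had no member that passed the test. Pdk1, the hypoxia-inducible member, measured 62.6, 61.5 and 48.9 CPM in the heterozygous libraries against 63.7, 67.0 and 46.5 CPM in the null ones (log2 fold change 0.03, SE 0.14, edgeR adjusted p = 0.984). It was lowest in the same 2 libraries as Ldha. Pdk4, induced by fasting and glucocorticoids in other tissues, was at 5.46, 6.16 and 4.02 CPM against 3.86, 5.54 and 3.60 CPM (-0.26, SE 0.22, edgeR adjusted p = 0.886). Pdk2 lay between 20.6 and 27.4 CPM and Pdk3 between 11.7 and 15.8 CPM. Per length, Pdk1 (36.2% and 37.4% in the 2 groups) and Pdk2 (35.8% and 35.3%) had nearly equal shares, and Pdk4 had 4.89% and 4.10%. Of 12 other tested genes around pyruvate dehydrogenase, 0 passed at either level, with 2 positive and 10 negative fold changes. The 2 with the smallest p were the phosphatase gene Pdp2 (0.36, edgeR adjusted p = 0.728) and Dld (-0.11, edgeR adjusted p = 0.826), the shared dehydrogenase subunit.

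The hypoxia targets had positive fold changes in 6 of 7 cases, with a median of 0.20, but none passed and every one of them overlapped between the groups. Adm measured 0.941, 1.04 and 0.769 CPM in the heterozygous libraries against 1.46, 1.93 and 0.782 CPM in the null ones (log2 fold change 0.61, SE 0.34, edgeR adjusted p = 0.798). Null replicates 2 and 4 were high and null replicate 10 was within the heterozygous range. Egln3, a prolyl hydroxylase that hypoxia-inducible factors themselves induce, measured 12.5, 12.8 and 11.9 CPM against 16.1, 16.3 and 11.8 CPM, with null replicates 2 and 4 high and null replicate 10 lowest of all (0.25, SE 0.15, edgeR adjusted p = 0.809). P4ha1, a collagen prolyl hydroxylase subunit also lowest in null replicate 10, was at 21.95, 20.3 and 16.8 CPM against 27.1, 24.1 and 16.7 CPM (0.20, SE 0.17, edgeR adjusted p = 0.883).

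Ankrd37, a small ankyrin-repeat protein gene, measured 4.55, 3.30 and 3.19 CPM in the heterozygous libraries against 6.30, 4.59 and 3.37 CPM in the null ones (log2 fold change 0.36, SE 0.25, edgeR adjusted p = 0.842). Null replicate 2 stood clear of the heterozygous libraries, null replicate 4 was just above the highest of them, and null replicate 10 lay among them. Ndrg1, a stress-induced gene also active in myelinating cells, was at 80.0, 70.1 and 61.9 CPM against 76.8, 92.8 and 67.9 CPM (0.16, SE 0.13, edgeR adjusted p = 0.864). Vegfa, the endothelial growth factor, chosen here after its values were seen, was at 97.9, 100.99 and 65.6 CPM against 125, 107 and 72.3 CPM. Its lowest 2 libraries were heterozygous replicate 11 and null replicate 10, with the higher at 73.8% of the lowest other. Bnip3, a mitophagy receptor gene, was the 1 target with a negative fold change and ranged from 29.005 to 41.8 CPM.

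The libraries labelled null thus differed among themselves in these targets. Without null replicate 10, 5 members had an unadjusted p under 0.05 by edgeR (Pfkfb3, Ankrd37, Adm, Egln3 and P4ha1), and 0 of them passed. Over all genes the number rose as well, to 1440 of 16232 tested from 1124 of 15925 with every library. That setting keeps only null replicates 2 and 4 in the null group, already seen to be high in Adm and Egln3. Of the 32 members 10 had null replicates 2 and 4 as their highest libraries, 5 of them hypoxia targets, against 8.74% of all genes tested. This pair was picked with the values known. All of the 10 but Pfkfb3 and Ankrd37 also had heterozygous replicate 11 and null replicate 10 lowest. With those lowest, the highest 2 come from only 4 libraries, so 8.74% is no like-for-like share. In null replicates 2 and 4, 12 of 12 immediate-early genes were highest. Their summed level there was 460 and 1201 CPM, against 123 to 153 CPM in the other 4 libraries. Their part in the result was not tested.

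The most widespread pattern among the members crossed the genotype labels. Heterozygous replicate 11 and null replicate 10 were the 2 lowest libraries for 18 of 32 members, against 14.8% of all genes tested. These were Hk2, Gpi1, Pfkl, Pfkm, Aldoa, Tpi1, Pgk1, Pkm, Ldha, Ldhb, Pdk1, Pdk3, Vegfa, Bnip3, Adm, Egln3, Ndrg1 and P4ha1. They include 10 of the 16 enzymes from hexokinase to lactate dehydrogenase and 6 of the 7 hypoxia targets. The 2 libraries carry different genotype labels and are no batch that the labels name. They were also the most alike of the 15 library pairs, with a chi-square of 13.45 per gene between their counts. The pair was picked with these values known and all members come from the same 6 libraries, so the count is a description without a test.

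Measured as the deviation of each member from its own mean on the log2 scale, the median member lay at -0.20 in heterozygous replicate 11 and -0.17 in null replicate 10. In heterozygous replicates 6 and 7 it lay at 0.09 and 0.08, and in null replicates 2 and 4 at 0.05 and 0.17. The same value over all genes tested stayed between -0.003 and 0.006 in every library. For hypoxia targets the medians were -0.31 and -0.29 in heterozygous replicate 11 and null replicate 10, and for lactate dehydrogenase genes -0.26 and -0.21. The phosphofructokinase-2 genes went the other way, at 0.14 and 0.17. Between its highest and lowest library Adm differed 2.504-fold, Vegfa 1.90-fold, Pfkl 1.83-fold, Tpi1 1.69-fold and Ldha 1.62-fold.

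**Figure D5:**
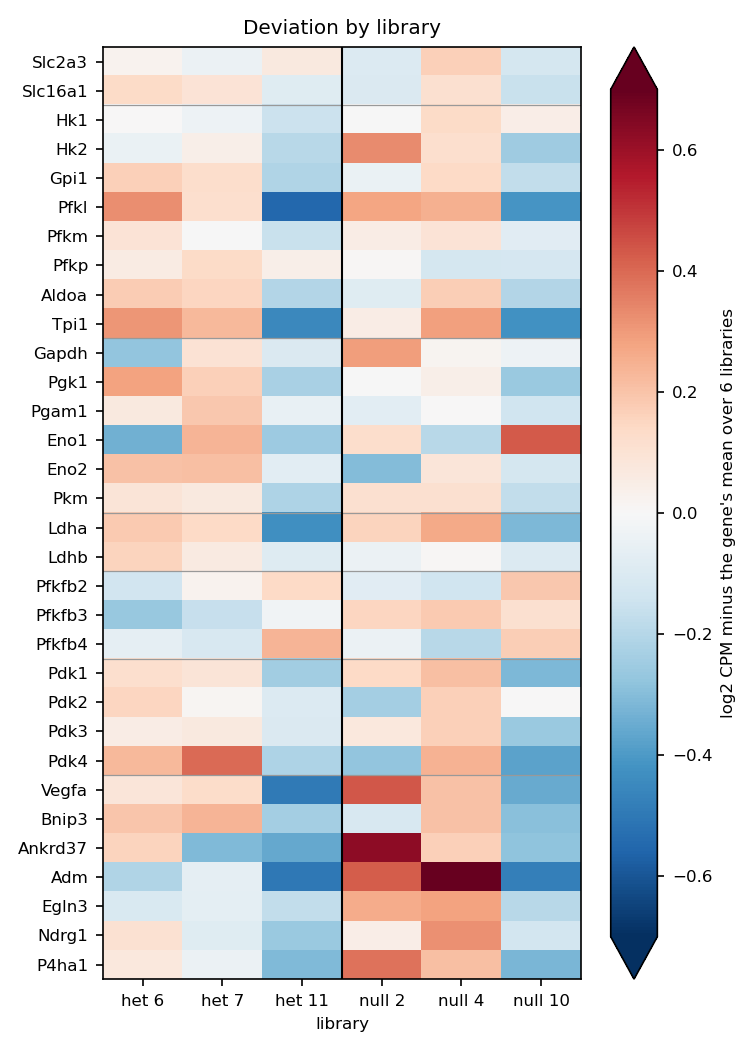
Log2 CPM of each gene minus its mean over the 6 libraries, genes in rows by role and libraries in columns, with blue below and red above the mean and the scale ending at 0.7 either way. The columns of heterozygous replicate 11 and null replicate 10 are mostly blue, with Pfkfb2 and Pfkfb4 red, and null replicates 2 and 4 are red for Adm, Egln3 and P4ha1.

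Several measures moved with this pattern. The count depended on scaling, since with library size alone it was 10 of 32 members against 6.92% of all genes. With DESeq2 size factors, upper-quartile factors and structural RNAs removed it was 18, 19 and 18. Among members with under 10% shared windows it was 10 of 18. Summed marker levels were also lowest in heterozygous replicate 11 and null replicate 10 for radial glia (1002 and 1028 CPM against 1143 to 1287 in the others, 6 genes), the oligodendrocyte lineage (361 and 337 against 390 to 447, 7 genes) and neurons (6395 and 6678 against 6839 to 7165, 8 genes). Gene by gene, the pattern held for 3 of 6 radial glia, 2 of 7 oligodendrocyte and 2 of 8 neuronal markers, and for 7 of 12 immediate-early genes. No marker in these lists was at 0 in all libraries. In every other marker list, immediate-early genes included, these 2 libraries did not have the 2 lowest sums. Among the remaining lists the pattern held for 2 of 7 microglial, 2 of 5 pericyte, 1 of 7 endothelial and 1 of 6 tested skeletal muscle markers. It held for 0 of the tested markers of astrocytes (7), choroid plexus (6), meninges (6), hindbrain (8), glucocorticoid response (8), liver (2) and erythroid cells (2). The 2 libraries were lowest for 17.8% of genes in the highest of 5 equal classes of transcript GC content and 11.4% in the lowest, and for 22.5% of genes in the shortest of 5 length classes and 9.80% in the longest. From the lowest to the highest GC class, 1 of 2, 3 of 7, 6 of 8, 5 of 9 and 3 of 6 members showed it, and from the shortest to the longest length class 3 of 5, 5 of 8, 5 of 7, 3 of 8 and 2 of 4. The part of cell makeup, length and base composition in the pattern was not tested.

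The oxygen-sensing machinery itself was measured through 15 other genes, of which 0 passed. At the unadjusted level 2 were higher and 0 lower (4.13% and 2.93% of all genes tested). Hif1a, the regulated subunit, measured 125, 129 and 137 CPM in the heterozygous libraries against 143, 145 and 153 CPM in the null ones (log2 fold change 0.17, SE 0.07, unadjusted p = 0.0299, edgeR adjusted p = 0.651). Ep300, a coactivator of that factor and of many others, was at 83.8 ± 9.27 and 99.8 ± 2.97 CPM (SD, n = 3 each, 0.25, edgeR adjusted p = 0.630). Neither gene overlapped between the groups, and Hif1a protein is controlled mainly by its breakdown, which RNA does not show.

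Among 54 further hypoxia targets 33 had positive and 21 negative fold changes, with a median of 0.06, and 0 passed. At the unadjusted level 3 were higher and 1, Aldoc, was lower. Kdr, the main endothelial receptor for Vegfa, measured 41.1, 42.7 and 38.9 CPM in the heterozygous libraries against 58.9, 59.3 and 42.5 CPM in the null ones (0.39, SE 0.13, edgeR adjusted p = 0.570). As with Adm, null replicates 2 and 4 were high, and null replicate 10 lay within the heterozygous range. The 7 endothelial markers, of which Kdr is one, summed to 180 to 208 CPM in heterozygous libraries and 185 to 226 CPM in those labelled null. Of these 7, 2 had positive and 5 negative fold changes (median -0.005), with 1 higher and 1 lower at the unadjusted level. Among 24 other glycolytic genes 7 were positive and 17 negative, with 2 lower and 0 higher at the unadjusted level. The lower ones were Aldoc, the astrocyte aldolase (225 ± 33.2 and 175 ± 29.6 CPM, -0.36, edgeR adjusted p = 0.639), and Ldhd, a D-lactate dehydrogenase whose groups did not overlap (-0.56, edgeR adjusted p = 0.659). The 7 astrocyte markers, Aldoc included, all had negative fold changes and summed to 805 to 892 CPM in heterozygous libraries and 657 to 825 CPM in those labelled null. At the unadjusted level 3 of them were lower and 0 higher (2.93% and 4.13% of all genes tested), and 0 passed. The part of astrocyte content in the Aldoc value was not tested. Of 9 pentose phosphate genes 0 passed at either level, with G6pdx at 0.16 (edgeR adjusted p = 0.808) and Tkt at 0.13 (edgeR adjusted p = 0.835).

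Promoters were searched for the core of the hypoxia response element, ACGTG or GCGTG, on both strands. The search took in all members, whether or not they were lowest in heterozygous replicate 11 and null replicate 10. RefSeq promoters on GRCm38.p6, from 250 bases before to 50 after each start, were matched by symbol for 30 members with 46 promoters, and Slc2a3 and Ndrg1 had none. A match was present in 36 of the 46 (78.3%), against 43.8% of all 32851 promoters of the same length. The motif contains CG, and the member promoters also held more CG dinucleotides, with a median of 18.5 against 7.0. By gene, 27 of 30 had a match in at least 1 promoter, and Eno2, Tpi1 and Gpi1 had none. Tpi1 and Gpi1 were lowest in those 2 libraries and Eno2 was not, so members with and without that pattern mostly had a match. The list was chosen for glycolysis and hypoxia, so its share beside that of all promoters does not bear on the pattern. The first 250 bases of 4 promoters are shown 5′ to 3′ on the gene's strand, with matches on either strand in capitals. Ldha and Bnip3 were chosen as members low in these 2 libraries with several matches, Tpi1 as one with the same pattern and no match, and Pfkfb3 for its split between genotypes. The 50 bases after the printed Ldha start were not found unbroken in any GENCODE transcript of that gene. Whether it is the main start was not tested.
Ldha, chr7:46845554-46845803, plus strand: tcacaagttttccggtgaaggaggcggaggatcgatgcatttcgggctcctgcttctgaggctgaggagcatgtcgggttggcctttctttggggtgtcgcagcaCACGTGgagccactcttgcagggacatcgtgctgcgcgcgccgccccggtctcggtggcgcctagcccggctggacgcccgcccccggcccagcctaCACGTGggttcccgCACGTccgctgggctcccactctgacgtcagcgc
Bnip3, chr7:138909507-138909756, minus strand: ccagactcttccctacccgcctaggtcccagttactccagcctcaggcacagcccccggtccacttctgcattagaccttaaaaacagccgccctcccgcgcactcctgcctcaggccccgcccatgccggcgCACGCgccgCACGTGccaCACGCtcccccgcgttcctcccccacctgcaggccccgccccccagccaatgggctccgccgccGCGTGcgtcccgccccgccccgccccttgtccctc
Pfkfb3, chr2:11502091-11502340, minus strand: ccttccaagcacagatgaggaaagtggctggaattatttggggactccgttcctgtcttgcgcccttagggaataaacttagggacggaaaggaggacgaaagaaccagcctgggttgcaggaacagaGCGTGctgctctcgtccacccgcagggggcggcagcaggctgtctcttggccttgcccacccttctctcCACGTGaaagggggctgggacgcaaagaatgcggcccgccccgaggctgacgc
Tpi1, chr6:124814159-124814408, minus strand: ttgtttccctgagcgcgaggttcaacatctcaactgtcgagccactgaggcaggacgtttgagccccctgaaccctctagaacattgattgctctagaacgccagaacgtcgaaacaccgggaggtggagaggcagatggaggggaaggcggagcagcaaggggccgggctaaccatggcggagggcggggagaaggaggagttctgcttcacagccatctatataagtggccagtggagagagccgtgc
Ldha held 3 separate stretches, Bnip3 4, Pfkfb3 2 and Tpi1 0, where CACGTG reads as a match on both strands and counts as 1 stretch. Tpi1 and Ldha were both lowest in heterozygous replicate 11 and null replicate 10, with windows that differ in this motif. Counted instead over all 300 bases, with CACGTG counted once on each strand, the same promoters held 7 (Ldha), 5 (Bnip3), 4 (Pfkfb3) and 0 (Tpi1) matches. By that count Slc16a1 and Hk1, not lowest in these 2 libraries, held up to 5 in a promoter. Gpi1, lowest in them, held 0. The part of the motif in the pattern was not tested. These matches describe letters in a window, and no binding was measured here.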

How the data were processed

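Read counts per gene symbol were measured in 6 libraries, 3 labelled null and 3 heterozygous. The authors deposited raw counts with a gene length in bases. Per the labels' protocols the kit was one for stranded total RNA at small input, whereas the design text and molecule field name poly(A) RNA. Per the submitters' processing notes, tools named without a role were STAR, cutadapt, CASAVA, MACS2, Picard and bedtools, with hg19 and mm9 as builds. What counted the reads, on which strand and with which rule for multiple matches is not stated in those sources, so overlapping, antisense and duplicated genes are uncertain.

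Genes were kept by filterByExpr (15925 of 24391). The test was edgeR 4.0.16's quasi-likelihood test with TMM factors and robust dispersion in R 4.3.3, adjusted by Benjamini-Hochberg over all genes tested at 0.05. Standard errors are the fold change over the square root of F, and the biological coefficient of variation was 13.9%. Isoenzyme shares used counts per length and an exact two-sided permutation test over libraries, whose smallest p is 0.1. Members and lists were chosen with earlier results of these data known. Values in every library are given for the 12 members with the smallest p, the highest member per length of each role and members without overlap, and for others named as chosen later. In each other list, the 2 genes of lowest p among those averaging at least 50 counts are named. Of 56 further hypoxia symbols 55 were in the table. GC content was found for 96.3% of tested genes. No 2 libraries agreed within sampling noise, the smallest chi-square per gene of any pair being 13.45. Alternatives were other scalings and filters, DESeq2 1.42.0, limma-voom (limma 3.58.1), a Y-linked covariate and leaving out each library. The fitting steps were tested on simulated data.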

Additional observations from a re-analysis of the deposited data

How the results depend on the processing

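Directions and calls were recomputed under each alternative. The members passing the adjusted threshold numbered 0 in every one, though DESeq2 gave an adjusted p to only 24 of the 32. Over all genes the count of calls, 1 as reported, was 0 with DESeq2 size factors, a CPM minimum, limma-voom, structural RNAs removed or null replicates 2 and 4 left out. It was 2 with upper-quartile factors or library size alone, 3 without a filter on low counts, 10 with a covariate for Y-linked transcripts, 11 with a term for pups 10 and 11, and 57 with DESeq2, and without single libraries it ran from 0 to 4. The terms for Y-linked transcripts and for the 2 pups describe the libraries and are no labelled batch, and the second, like leaving out null replicates 2 and 4, was chosen after seeing the data. That last setting removes libraries seen to be high and leaves the null arm as null replicate 10 alone, assumed to vary like the heterozygous libraries, so its directions follow from the choice and say nothing of stability. Members with an unadjusted p under 0.05, 2 as reported, numbered 1 with DESeq2 and 1 to 5 without single libraries, and the genes changed as well as their number. Over all genes tested such genes numbered 1124 as reported and 599 to 1554 without single libraries. With the lone null library the number was 0, which is no like-for-like count. The median log2 fold change of the members was 0.02. It was -0.055 without heterozygous replicate 11, -0.046 without null replicate 4 and 0.099 without null replicate 10, so its sign is not settled. With library size alone it was -0.071, where the median of all genes moved too, to -0.086. Without null replicates 2 and 4 it was -0.20, which says nothing of stability for the reason given above. Members lowest in heterozygous replicate 11 and null replicate 10 numbered 10 with library size alone, and 10 of 18 among those with under 10% shared windows, where fewer members were counted. The cause of the other changes was not tested.

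With library size alone the log2 fold change turned to -0.054 for Pkm, -0.023 for Ldha and -0.054 for Pdk1, while the median of all genes moved to -0.09. Without null replicates 2 and 4 it turned to -0.16 for Pkm, -0.30 for Ldha, -0.30 for Pdk1, -0.13 for Ankrd37, -0.22 for Adm, -0.074 for Egln3, -0.052 for Ndrg1, -0.23 for P4ha1, -0.088 for Slc2a1 and 0.080 for Slc16a8. Without single libraries it ran from -0.13 to 0.021 for Slc2a3, from -0.058 to 0.12 for Pkm, from -0.11 to 0.22 for Ldha and from -0.071 to 0.18 for Pdk1. With its sign kept, it ran from 0.28 to 0.89 for Adm, 0.11 to 0.56 for Ankrd37, 0.057 to 0.38 for P4ha1, 0.16 to 0.39 for Egln3, 0.034 to 0.26 for Ndrg1 and -0.48 to -0.12 for Pdk4, and 1 library could move each by over 1.5 times. Differences in share, in percentage points, ran from -0.147 to 0.110 for Hk1, 0.307 to 4.998 for Ldha, -0.904 to 3.71 for Pfkl, -0.653 to 3.06 for Pdk1, -3.06 to 1.93 for Pdk2 and -0.665 to 0.697 for Pdk3, and the Pdk3 difference was -0.059 when counts were not divided by length. None of these reversals concerned a value that passed a test.

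No paired analysis was possible because the pup numbers of the 2 groups are not shared. With 3 libraries a group, intervals as wide as 1.51 on the log2 scale leave sizeable differences in members such as Adm, Vegfa and Ldha undetectable.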
